A study of Mus musculus with 14 samples.

Results

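The genes described here encode myosin heavy chains, myosin light chains and troponins of the heart, among them the developmental pairs Myh6 and Myh7, and Tnni3 and Tnni1. They were found by matching 10 symbols, Myh6, Myh7, Myh7b, Myl2, Myl4, Myl7, Tnni1, Tnni3, Tnnt2 and Tnnc1, to Ensembl gene IDs in GENCODE vM21 on mouse build GRCm38. All 10 were among the 54446 genes of the count table, and all 10 were among the 17987 genes with enough reads to be tested. Reads of polyA RNA had been counted per gene in heart nuclei of ICR mice, an outbred strain, after enrichment for PCM1, a protein at the nuclear surface of cardiomyocytes. Mice had been injected intraperitoneally with adeno-associated virus of serotype 9 on postnatal day 7, at 1E11 genome copies per virus, and hearts were taken on postnatal day 12, 5 days later. There were 4 groups. YAP5SA_MEF2A (2 libraries) received a virus for YAP5SA, a form of YAP that escapes inhibition by the Hippo pathway, together with a virus for the human muscle transcription factor MEF2A. YAP5SA (3 libraries) and MEF2A (4 libraries) received 1 of these viruses each. Control (5 libraries) received no virus, so a difference from Control combines the effect of virus and transgene. Both transgenes were driven by a cardiac troponin T promoter, which directs expression to cardiomyocytes. All mice were wild type. Whether every library came from its own animal is not stated, so the p-values given here reflect library-to-library spread, which may be technical in part.

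Myosin heavy chains are the motors of the thick filament. The mouse heart uses beta-myosin (Myh7) before birth and replaces it with the faster alpha-myosin (Myh6) around birth, a change driven by thyroid hormone. The troponin complex on the thin filament holds the calcium switch, and its inhibitory subunit changes from the slow skeletal form (Tnni1) to the cardiac form (Tnni3) over the first weeks of life. At postnatal day 12 the heavy chain change is therefore largely complete and the troponin I change is under way, and shares of Myh7 and Tnni1 serve as marks of cardiomyocyte immaturity or stress.

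On build GRCm38 the heavy chain pair are neighbours on the minus strand of chromosome 14, with Myh6 (ENSMUSG00000040752) at 54941921 to 54966927 and Myh7 (ENSMUSG00000053093) at 54970684 to 54994626. Tnni1 (ENSMUSG00000026418) lies on chromosome 1, 135779434 to 135810989, plus strand, and Tnni3 (ENSMUSG00000035458) on chromosome 7, 4518305 to 4524229, minus strand. Each of the 3 heavy chain genes carries a microRNA in an intron, and these are shown because those of Myh6 and Myh7 are near copies, as their hosts are. The mature sequences from RefSeq (GRCm38.p6) are given with the seed, bases 2 to 8 from the 5′ end, in capitals. They lie at chr14:54949072-54949093 (minus strand, in Myh6), chr14:54975710-54975731 (minus strand, in Myh7) and chr2:155622893-155622913 (plus strand, in Myh7b).
mmu-miR-208a-3p: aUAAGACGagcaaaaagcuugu
mmu-miR-208b-3p: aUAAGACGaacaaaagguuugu
mmu-miR-499-5p: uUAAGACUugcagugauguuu
The miR-208a and miR-208b sequences share the seed UAAGACG and differ at 3 of 22 bases, G10A, A16G and C18U, written with the miR-208a base first and counted from the 5′ end. The miR-499 seed, UAAGACU, shares with them the 6 bases that start at position 2.

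YAP acts through TEAD factors, which bind the MCAT element of muscle promoters, and the promoters of the 2 genes of the heavy chain pair and of Tnni3 are shown for that reason. Each is the 250 bases before the RefSeq start site, 5′ to 3′ on the gene's strand, with any MCAT element (CATTCC, or GGAATG where it lies on the other strand) in capitals.
Myh6 promoter, chr14:54966608-54966857 (-): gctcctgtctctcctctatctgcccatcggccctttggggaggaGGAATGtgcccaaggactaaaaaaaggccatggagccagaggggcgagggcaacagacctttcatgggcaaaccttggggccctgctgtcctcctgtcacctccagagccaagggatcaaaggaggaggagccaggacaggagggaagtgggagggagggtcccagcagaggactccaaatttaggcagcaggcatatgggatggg
Myh7 promoter, chr14:54994627-54994876 (-): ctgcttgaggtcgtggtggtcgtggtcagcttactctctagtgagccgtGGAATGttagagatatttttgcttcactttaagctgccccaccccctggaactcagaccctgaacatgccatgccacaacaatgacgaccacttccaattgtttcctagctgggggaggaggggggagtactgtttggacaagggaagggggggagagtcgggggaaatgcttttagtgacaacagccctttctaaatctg
Tnni3 promoter, chr7:4522529-4522778 (-): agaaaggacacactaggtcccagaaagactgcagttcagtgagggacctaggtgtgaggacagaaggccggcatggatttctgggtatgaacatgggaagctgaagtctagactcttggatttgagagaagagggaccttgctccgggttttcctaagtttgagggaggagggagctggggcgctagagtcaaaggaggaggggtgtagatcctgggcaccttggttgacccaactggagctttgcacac
Myh6 and Myh7 each held 1 MCAT element on the reverse strand, at positions -206 and -201 from the start site, and Tnni3 held none. Within 300-base windows (250 before and 50 after the start, both strands), 5 of the 10 genes held an MCAT element (Myh6, Myh7, Tnnt2, Tnnc1 and Myl7), and Myh7b, Tnni1, Tnni3, Myl2 and Myl4 did not. Some of the 10 genes have more than 1 RefSeq start, and 5 of their 14 windows held the element, against 14.7% of all 32851 promoter windows. The MEF2 element, written as CTA, 4 bases that are A or T, and TAG, was in 0 of the 10 genes, against 0.557% of all windows. These are matches of letters and not measured binding. The RefSeq start of Myh6 lies 320 bases from the GENCODE start, that of Tnni3 lies 1701 bases from it, that of Myl2 7762 and that of Tnni1 19987, so these windows belong to the RefSeq start only.

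Depth was 16171068 to 24027622 counts a library. The batch 1 Controls, numbers 1 and 2, were rich in mitochondrially encoded RNA (60.8% and 67.5% of counts), as was YAP5SA 3 (32.2%), while the other 11 libraries had 3.80% to 23.2%. Both YAP5SA_MEF2A libraries were in batch 1 and were female by Xist and Y-linked transcripts. All 3 YAP5SA libraries were male. No cardiomyocyte marker was at 0 in any library. The 8 cardiomyocyte markers summed to 15680 to 18530 CPM in YAP5SA_MEF2A, 9673 to 14140 in YAP5SA, 24070 to 34430 in MEF2A and 21060 to 30810 in Control. Mybpc3 and Ttn, with Control means of 10360 and 9342 CPM, weigh most in this sum. Mean Nkx2-5 and Pln were 34.2 and 159 CPM in YAP5SA_MEF2A, above 25.4 and 117 in Control, while the other markers were lower. In YAP5SA their means were 23.0 and 93.3 CPM. CPM is the count of a gene per 1E6 counts after scaling by TMM (trimmed mean of M values). In bulk nuclei, fewer cells of a type and less RNA per cell cannot be told apart.

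Summed, the 10 genes took a smaller share of nuclear RNA with YAP5SA than without it. The sum is weighted toward Myh6 and Tnnt2, with Control means of 29240 and 11590 CPM. Against Control, with TMM scaling, 8 of the 10 log2 fold changes were below 0 in YAP5SA and 7 in YAP5SA_MEF2A. Those of Myh7 and Tnnc1 were above 0 in both. The 10 genes took 4.52% and 4.66% of non-mitochondrial counts in the YAP5SA_MEF2A libraries, and 3.73% to 4.82% in the YAP5SA libraries. The share was 7.64% to 8.41% in MEF2A and 5.05% to 8.11% in Control, so neither group with YAP5SA overlapped MEF2A or Control. The Controls rich in mitochondrial RNA had the lowest shares of their group, 5.46% and 5.05%. Per kilobase of the principal transcript, mean levels in Control were in the order Tnnt2 (9659 ± 1458 CPM per kb, SD, n = 5), Myh6 (4783 ± 1865), Myl2 (3332), Tnni3 (2590), Tnnc1 (728), Myl4 (469), Myl7 (456), Myh7 (128), Myh7b (122) and Tnni1 (117). The Control ranges of these neighbours overlapped between Myh6 and Myl2, Myl2 and Tnni3, Myl4 and Myl7, Myh7 and Myh7b, and Myh7b and Tnni1. The adult members of both pairs thus stood far above the fetal ones, Myh6 over Myh7 and Tnni3 over Tnni1.

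**Figure D1:**
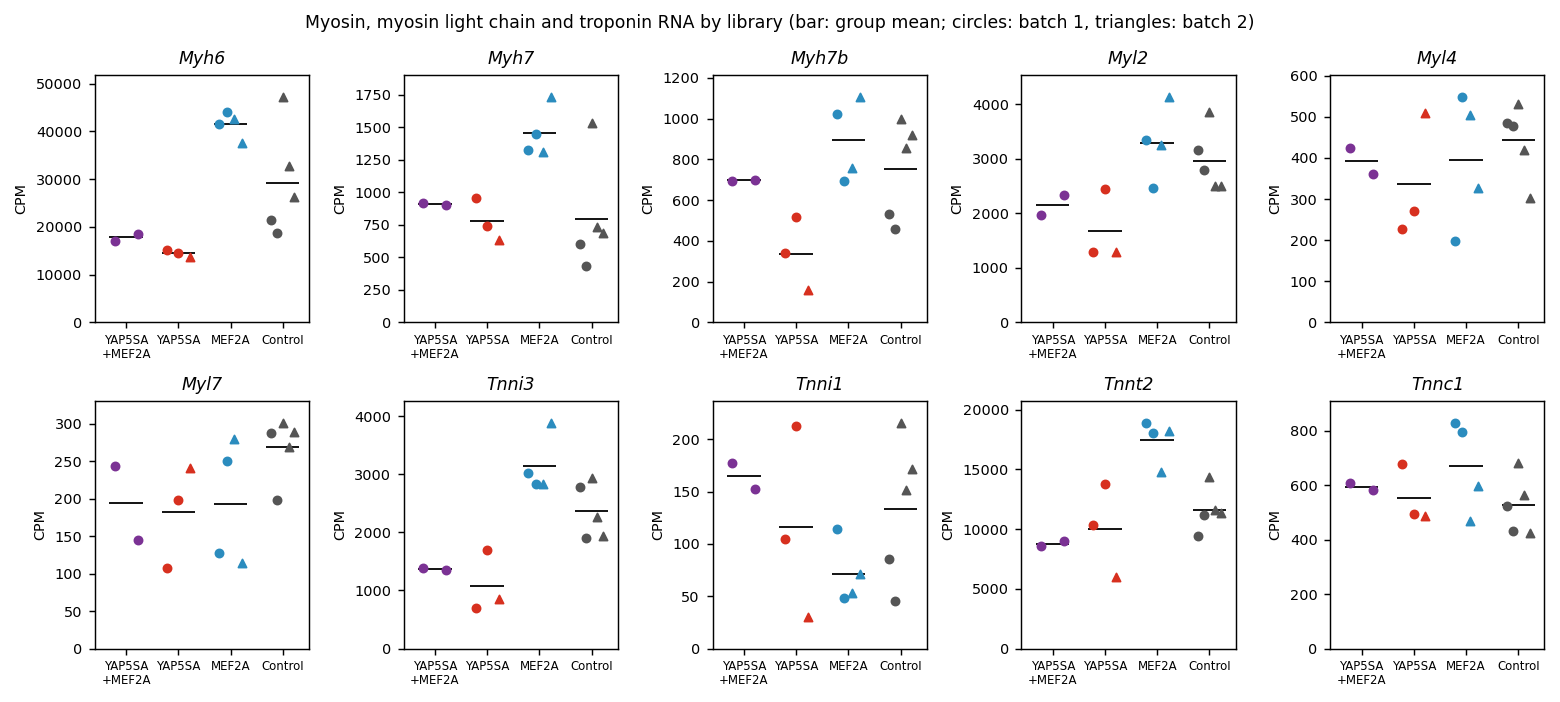
Level of each of the 10 genes (vertical axis, CPM after TMM scaling, from 0) in every library of YAP5SA_MEF2A, YAP5SA, MEF2A and Control; circles are batch 1, triangles batch 2 and bars group means. Myh6 was 13770 to 15250 CPM in YAP5SA, below all Controls, while Myh7 in YAP5SA lay within the Control range.

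The heavy chain pair asks whether active YAP or MEF2A shifts cardiomyocytes between the fetal and adult motor. Myh7 reads per 100 Myh6 reads were 5.38 and 4.84 in the YAP5SA_MEF2A libraries. They were 6.26, 5.08 and 4.57 in YAP5SA 1 to 3, and 3.18, 3.29, 3.07 and 4.61 in MEF2A 1 to 4. In Controls 1 to 5 they were 2.82, 2.31, 3.25, 2.25 and 2.61. Every library with YAP5SA lay above every Control, and 2 of 4 MEF2A libraries lay above all Controls, with MEF2A 4 also above YAP5SA 3.

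The log2 ratio was higher by 1.00 ± 0.16 (SE) in YAP5SA than in Control, a 2.01-fold difference that all 3 YAP5SA libraries shared. The exact two-sided permutation p was 0.0179, the smallest that 3 against 5 libraries allow, and 0.114 after Benjamini-Hochberg adjustment over the 12 ratio tests (2 ratios, 6 comparisons). For YAP5SA_MEF2A against Control the difference was 0.96 ± 0.17 (1.95-fold, 2 of 2 libraries), with an exact p of 0.0476, again the smallest possible, and an adjusted p of 0.114. For MEF2A against Control it was 0.41 ± 0.16 (1.33-fold, 4 of 4 libraries above the Control mean), with an exact permutation p of 0.0397 and an adjusted p of 0.114. YAP5SA_MEF2A and YAP5SA differed by -0.04 ± 0.18, less than the spread between libraries (exact p 0.9, where the smallest possible is 0.1). YAP5SA_MEF2A exceeded MEF2A by 0.55 ± 0.21 and YAP5SA exceeded MEF2A by 0.59 ± 0.20, with exact permutation p of 0.0667 (the smallest possible) and 0.0857, adjusted 0.114 and 0.127. None of the 12 tests passed 0.05 after adjustment. With labels exchanged only within a batch, the exact permutation p was 0.0417 for YAP5SA against Control and 0.167 for YAP5SA_MEF2A against Control, in each case the smallest possible, and 0.05 for MEF2A against Control (adjusted 0.167, 0.25 and 0.167).

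Within batch 1, with 2 libraries a group, the same log2 differences were 1.15 for YAP5SA against Control, 1.00 for YAP5SA_MEF2A against Control and 0.34 for MEF2A against Control. Without Controls 1 and 2, YAP5SA exceeded Control by 0.98, and without these and YAP5SA 3 by 1.08. The ratio is taken within a library and does not depend on scaling between libraries. Myh6 and Myh7 messages are close copies: 11.2% of the 100-base stretches of the Myh7 transcript also occur in Myh6, so how shared reads were counted can move the ratio. The libraries carry no strand, and Myh7 exons are overlapped on the other strand by Mhrt (5.6% of exon bases), Gm31251 (6.1%) and Gm29015 (1.6%), so reads of these genes cannot be told apart there and Myh7 counts are uncertain.

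**Figure D2:**
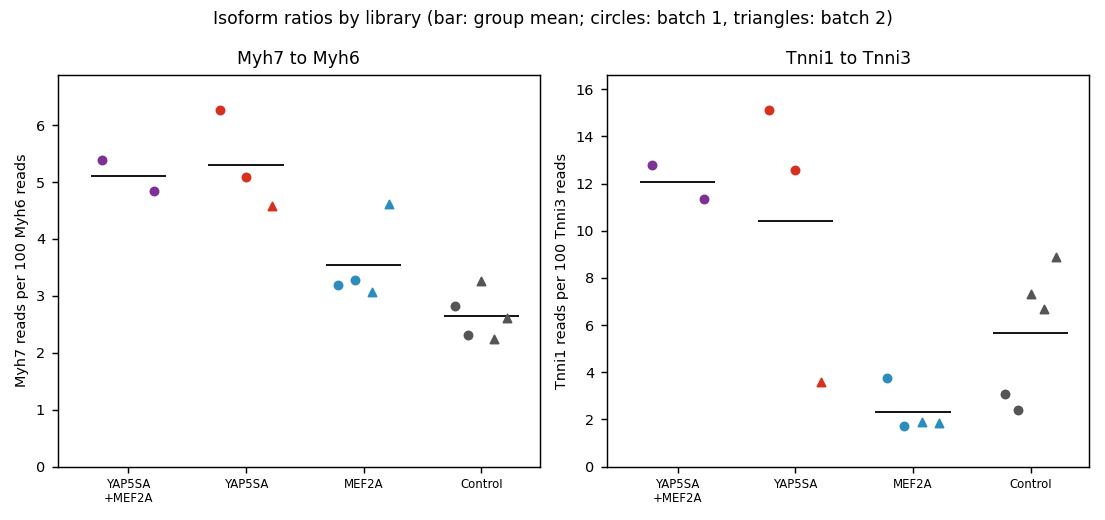
Myh7 reads per 100 Myh6 reads and Tnni1 reads per 100 Tnni3 reads (vertical axes, from 0) in each library, by group; circles are batch 1, triangles batch 2 and bars group means. Every library with YAP5SA has a Myh7 to Myh6 ratio of 4.57 or more, above the highest Control at 3.25, whereas Tnni1 to Tnni3 ratios spread from 2.40 to 8.89 within Control.

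The troponin I pair showed a less uniform pattern. Tnni1 reads per 100 Tnni3 reads were 12.8 and 11.3 in the YAP5SA_MEF2A libraries. They were 15.1, 12.6 and 3.60 in YAP5SA 1 to 3. They were 3.77, 1.71, 1.87 and 1.84 in MEF2A 1 to 4, and 3.09, 2.40, 7.33, 6.68 and 8.89 in Controls 1 to 5. Both YAP5SA_MEF2A libraries lay above every Control, YAP5SA 3 lay among the Controls, and 3 of 4 MEF2A libraries lay below every Control.

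The log2 ratio was higher by 1.26 ± 0.62 in YAP5SA_MEF2A than in Control (2.39-fold, 2 of 2 libraries, exact permutation p 0.0952, adjusted 0.127). It differed by 0.81 ± 0.69 between YAP5SA and Control (2 of 3 libraries above the Control mean, exact p 0.321, adjusted 0.386), within the spread between libraries. It was 2.32-fold lower in MEF2A than in Control (log2 difference -1.22 ± 0.48, 0 of 4 libraries above the Control mean, exact p 0.0476, adjusted 0.114). YAP5SA_MEF2A exceeded MEF2A by 2.47 ± 0.41, a 5.55-fold difference (2 of 2 libraries above all MEF2A libraries, exact p 0.0667, the smallest possible, adjusted 0.114). YAP5SA exceeded MEF2A by 2.02 ± 0.63 (4.06-fold, 3 of 3 libraries above the MEF2A mean, exact p 0.0571, adjusted 0.114), and YAP5SA_MEF2A and YAP5SA differed by 0.45 ± 0.84 (exact p 0.9). The Control ratios split by batch: 3.09 and 2.40 in batch 1, the libraries rich in mitochondrial RNA, and 6.68 to 8.89 in batch 2. Within batch 1 the log2 differences were 2.34 for YAP5SA against Control, 2.14 for YAP5SA_MEF2A against Control, and -0.10 for MEF2A against Control. Without Controls 1 and 2 they were 0.22, 0.67 and -1.81. For YAP5SA against Control, YAP5SA 3 moved the value too, to 1.45 without that library and 0.86 without it and Controls 1 and 2. The parts of batch and of mitochondrial RNA in this ratio were not tested.

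The single genes were compared next, beginning with YAP5SA against Control. Myh6 and Tnni3, the adult heavy chain and the adult troponin I, fell, and no member rose. Of the 10 genes, 2 fell in edgeR's quasi-likelihood test at an adjusted p under 0.05, beside 9.86% of all 17987 genes called in either direction (1773 genes), and 4 had an unadjusted p under 0.05. The median log2 fold change of the 10 genes was -0.45, against 0.06 over all genes tested.

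Myh6 had 15250, 14560 and 13770 CPM in YAP5SA 1 to 3, against 21340, 18610, 47220, 32760 and 26260 CPM in Controls 1 to 5. The groups did not overlap, and the fall was 1.86-fold (log2 fold change -0.89 ± 0.28, SE, edgeR adjusted p = 0.0491). Tnni3 had 692, 1695 and 850 CPM in YAP5SA, against 2774, 1905, 2940, 2266 and 1929 CPM in Control. These groups did not overlap either, and the fall was 2.20-fold (-1.14 ± 0.28, adjusted p = 0.0156). How many of all genes separate between groups was not counted, so non-overlap here and below describes the levels only. The fetal partners of Myh6 and Tnni3 did not pass. Myh7 had 955, 740 and 630 CPM in YAP5SA, against 602, 430, 1536, 736 and 685 CPM in Control, and all YAP5SA values lay within the Control range (0.12 ± 0.31, adjusted p = 0.859). Tnni1 had 105, 213 and 30.6 CPM in YAP5SA, against 85.6, 45.8, 215, 151 and 172 CPM in Control, and YAP5SA spread as widely as Control (-0.20 ± 0.76, adjusted p = 0.909). In this fit the higher Myh7 to Myh6 ratio in YAP5SA thus came with lower Myh6 and with Myh7 that did not differ detectably. That split depends on scaling and libraries. Over 23 alternatives the log2 fold change ran from -0.411 to 0.775 for Myh7 (called in 0) and from -1.358 to -0.272 for Myh6 (called in 12). Within batch 1, Myh7 was higher in YAP5SA (955 and 740 CPM) than in Control (602 and 430 CPM). The part of each gene in the ratio was not tested.

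The Myh6 call was close to the threshold, and both calls depended on single libraries. The Myh6 call ended without Control 1, Control 4, Control 5, YAP5SA 1 or YAP5SA 3 (edgeR adjusted p = 0.0626, 0.0787, 0.0518, 0.10 and 0.252), and the Tnni3 call without Control 1, YAP5SA 1 or YAP5SA 3 (0.0567, 0.0861 and 0.130). Without Controls 1 and 2 and YAP5SA 3 the log2 fold changes were -1.34 for Myh6 (adjusted p = 0.233) and -0.79 for Tnni3 (0.588), and within batch 1 they were -0.47 (0.161) and -1.01 (0.109). With library totals and no TMM factors, no member was called, all genes had a median of 0.69, and the 10 genes had one of 0.17. The 10 genes then differed from all genes by -0.52 in the median, against -0.50 with TMM. A change of scaling moves all genes by about the same amount. This gap could therefore hardly change, and it lends the fall no support.

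Of the other myosin genes, Myl2, the regulatory light chain of ventricular muscle, had 1292, 2447 and 1284 CPM in YAP5SA, against 3168, 2787, 3861, 2495 and 2497 CPM in Control. The groups did not overlap but the test was not passed (-0.82 ± 0.26, adjusted p = 0.0555). Myh7b, an ancient heavy chain gene whose message in the adult heart is mostly kept from making protein, had 339, 516 and 157 CPM in YAP5SA, against 459 to 999 CPM (median 857) in Control (-1.08 ± 0.38, adjusted p = 0.0901). The atrial and embryonic essential light chain Myl4 (-0.39 ± 0.32) and the atrial regulatory light chain Myl7 (-0.50 ± 0.32) did not pass. Nor did Tnnt2, which anchors troponin to tropomyosin (-0.28 ± 0.26), and Tnnc1, the calcium-binding subunit (0.01 ± 0.22), with adjusted p from 0.346 to 0.986 over these 4 genes. The whole of Tnnc1 (3418 bases) lies inside Nisch on the other strand, with 0 bases shared between exons. Mean Nisch was 1369 CPM in Control. Without strand, its intronic reads cannot be told apart from Tnnc1 reads, so Tnnc1 counts are uncertain.

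YAP5SA_MEF2A against Control had low Tnni3 too, without a call. Of the 10 genes, 0 passed in edgeR's test, beside 1.36% of all genes (244), and 1 had an unadjusted p under 0.05. DESeq2 and limma-voom also called 0. Tnni3 had 1387 and 1346 CPM in YAP5SA_MEF2A, below every Control at 1905 to 2940 CPM (-0.81 ± 0.33, adjusted p = 0.280). Myh6 had 17000 and 18590 CPM in YAP5SA_MEF2A, just under the lowest Control at 18610 CPM (-0.52 ± 0.33, adjusted p = 0.545). Myl2 (1975 and 2334 CPM) and Tnnt2 (8566 and 9011 CPM) also lay below every Control, with log2 fold changes of -0.46 ± 0.31 and -0.51 ± 0.31. Separation from Control was not counted over all genes, so this describes the levels only. Myh7 had 915 and 899 CPM in YAP5SA_MEF2A, within the Control range (0.43 ± 0.37, adjusted p = 0.681). The median over the 10 genes was -0.18, against 0.01 over all genes. With library totals as the only scaling all 10 log2 fold changes were above 0, at a median of 0.65, against 0.84 over all genes. Since both libraries were in batch 1, this comparison leans on the batch term and on Controls 1 and 2.

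MEF2A against Control had higher mean levels of both heavy chains and of Tnnt2, none of them past the adjusted threshold. Of the 10 genes 0 passed in edgeR's test, beside 0.0167% of all genes (3), and 0 passed in DESeq2 and limma-voom. In edgeR 3 had an unadjusted p under 0.05, namely Myh7, Myh6 and Tnnt2. Myh7 had 1322, 1450, 1309 and 1732 CPM in MEF2A 1 to 4, above 4 of 5 Controls, with Control 3 at 1536 CPM (0.94 ± 0.27, edgeR adjusted p = 0.576). Without Control 3 it was called (1.28, adjusted p = 0.00619). Tnnt2 had 18850, 18050, 14810 and 18240 CPM in MEF2A, above all Controls at 9459 to 14330 CPM (0.57 ± 0.22, adjusted p = 0.613). The viruses carry a cardiac troponin T promoter and the Controls had no virus, and whether viral reads entered the Tnnt2 counts was not tested. Myh6 had 41570, 44120, 42650 and 37600 CPM in MEF2A, and Control 3 at 47220 CPM lay above them (0.57 ± 0.24, adjusted p = 0.640). Tnni1 had 114, 48.4, 52.9 and 71.2 CPM in MEF2A, against 45.8 to 215 CPM in Control (-0.90 ± 0.62, adjusted p = 0.794). The median over the 10 genes was 0.30, against 0.02 over all genes.

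YAP5SA against MEF2A had 5 of 10 genes lower in YAP5SA and 0 higher in edgeR's test, beside 14.9% of all genes called (2679). This comparison shares YAP5SA libraries with the comparison against Control and is no independent evidence of it. Tnni3 fell 2.93-fold (-1.55 ± 0.29, edgeR adjusted p = 0.00220), with 692 to 1695 CPM in YAP5SA, against 3025, 2830, 2832 and 3876 CPM in MEF2A. Myh6 fell 2.77-fold (-1.47 ± 0.28, adjusted p = 0.00253). Myh7b, with 692 to 1106 CPM in MEF2A, fell 2.56-fold (-1.36 ± 0.38, adjusted p = 0.0258). Myl2, with 2455 to 4132 CPM in MEF2A, fell 1.97-fold (-0.98 ± 0.27, adjusted p = 0.0226). Tnnt2 had 10320, 13800 and 6005 CPM in YAP5SA and was 1.80-fold lower (-0.85 ± 0.26, adjusted p = 0.0378). Myh7 lay below every MEF2A library without passing (-0.82 ± 0.31, adjusted p = 0.0868). In these 6 genes the groups did not overlap. How many of all genes separate in this way was not counted, so this describes the levels only. Tnni1 did not pass (0.70 ± 0.68, adjusted p = 0.549). The median over the 10 genes was -0.83, against 0.08 over all genes. Marker lists moved in this comparison as well: 5 of 8 cardiomyocyte markers (sum 9673 to 14140 CPM in YAP5SA, against 24070 to 34430 in MEF2A) and 2 of 8 endothelial markers were lower. Of 8 macrophage markers 4 were higher (sum 78.8 to 812 CPM in YAP5SA, against 57.2 to 89.6 in MEF2A), as were 3 of 8 fibroblast markers. Without 1 library these counts were 1 to 4, 0 to 3, 0 to 6 and 0 to 3, in that order. The part of cell composition was not tested.

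The calls of Myh6 and Tnni3 held in 21 and 19 of 22 alternative analyses of that comparison. That of Tnnt2 ended without any 1 of the 4 MEF2A libraries, YAP5SA 1 or YAP5SA 3. The Myh7b call ended without MEF2A 1, YAP5SA 1 or YAP5SA 3, and the Myl2 call without these or MEF2A 4. With library totals only, no member was called (Myh6 -1.03, adjusted p = 0.254) and the median of the 10 genes was -0.33, against 0.51 over all genes.

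**Figure D3:**
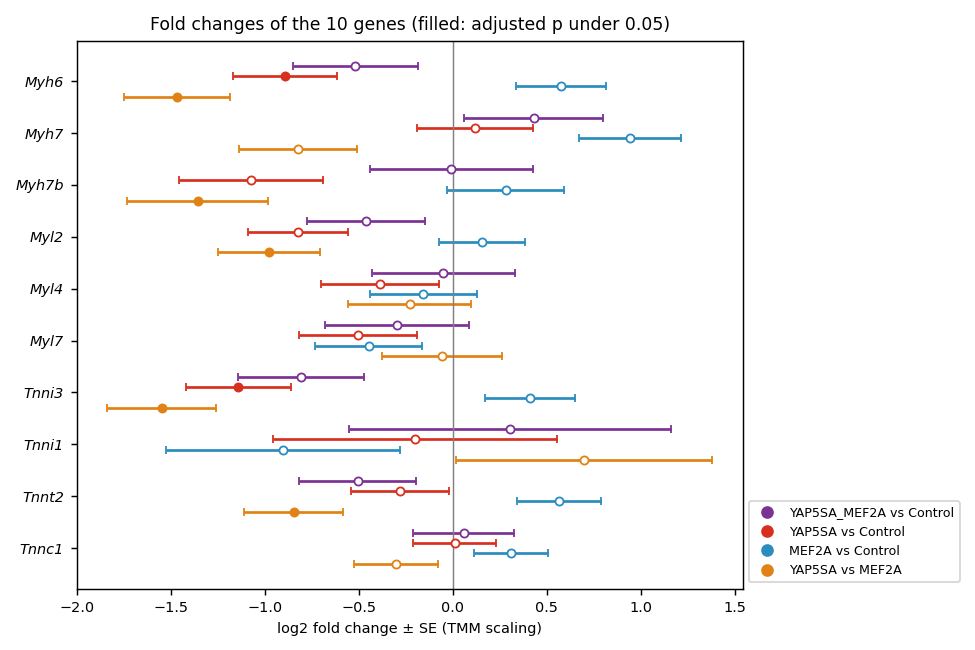
Log2 fold change of each of the 10 genes (horizontal axis) in YAP5SA_MEF2A, YAP5SA and MEF2A against Control and in YAP5SA against MEF2A, with bars of 1 SE; filled points passed edgeR's adjusted p of 0.05. Myh6 and Tnni3 are filled in YAP5SA against Control, and 5 genes are filled in YAP5SA against MEF2A.

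Between YAP5SA_MEF2A and YAP5SA no difference was detectable in these genes. Of the 10 genes 0 passed in edgeR, DESeq2 or limma-voom, beside 0% of all genes, and 1, Myh7b, had an unadjusted edgeR p under 0.05. Myh7b had 696 and 700 CPM in YAP5SA_MEF2A, against 157 to 516 CPM in YAP5SA (1.07 ± 0.42, adjusted p = 1). Myh6 was also higher without overlap, at 17000 and 18590 CPM in YAP5SA_MEF2A and 13770 to 15250 CPM in YAP5SA (0.38 ± 0.32). In YAP5SA_MEF2A against MEF2A, 0 of 10 genes passed in edgeR, beside 2.32% of all genes (417), and 3 had an unadjusted p under 0.05. These were Tnni3 (-1.22 ± 0.34, adjusted p = 0.0761), Tnnt2 (-1.07 ± 0.31, 0.0900) and Myh6 (-1.09 ± 0.33, 0.0997), and in each of them both YAP5SA_MEF2A libraries lay below all MEF2A libraries. Tnni1, at 178 and 153 CPM in YAP5SA_MEF2A, lay above all MEF2A libraries (1.21 ± 0.77, adjusted p = 0.520). How many of all genes separate from MEF2A in this way was not counted. These separations describe the levels only, as do those from YAP5SA. DESeq2 and limma-voom each called 3 of the 10 genes here, and the fit of these groups alone called 5. The interaction, which asks whether both viruses together differ from the sum of each, called 0 of 10 genes beside 0% of all genes, and 0 had an unadjusted p under 0.05. DESeq2 and limma-voom also called 0 of the 10 for the interaction.

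The rest of the sarcomere was followed with 18 genes of the thick and thin filament and their scaffolds, a list chosen with earlier results of these data known. In YAP5SA against Control 4 fell and 1 rose, where 4.17% of all genes fell and 5.69% rose, and the median was -0.46, against 0.06 over all genes. Without 1 library 2 to 9 of the 18 were called. Nebl, nebulette of the Z-disc, had 115, 172 and 83.7 CPM in YAP5SA, against 317 to 361 CPM in Control (-1.47 ± 0.21, edgeR adjusted p = 3.2e-04). Ttn, the titin spring of the sarcomere, had 3185, 4370 and 2319 CPM in YAP5SA, against 6714 to 11790 CPM in Control (-1.55 ± 0.28, adjusted p = 0.00200). Neither gene's groups overlapped, and neither call held without Controls 1 and 2 and YAP5SA 3 (-1.21, adjusted p = 0.115 for Nebl, and -0.61, adjusted p = 0.621 for Ttn). Mybphl, a myosin-binding protein of atrial and conduction muscle, was among the others that fell. Tpm3, a slow tropomyosin, rose (1.15 ± 0.26, adjusted p = 0.0108) but not without YAP5SA 3 or in batch 1 alone. With library totals only, Nebl and Ttn were each at -0.78 and neither was called. In YAP5SA against MEF2A 7 fell and 2 rose, where 7.12% of all genes fell and 7.77% rose. Tpm2 and Tpm3 were those that rose, both not without YAP5SA 3 or in batch 1 alone. In YAP5SA_MEF2A against MEF2A 2 fell, where 0.706% of all genes fell. Among them was Nebl (-1.35 ± 0.25, adjusted p = 0.00805), whose call did not hold without either YAP5SA_MEF2A library. In YAP5SA_MEF2A against Control 1 gene fell, where 0.195% of all genes fell. That gene, Nebl (-1.03 ± 0.25, adjusted p = 0.0473), was called in 11 of 22 alternatives. It failed without either YAP5SA_MEF2A library, without Control 1, 2, 4 or 5, with the replicate block, with a term for sex and with library totals only (-0.20, adjusted p = 0.838). In MEF2A against Control 0 of the 18 were called in edgeR, DESeq2 or limma-voom, and 2 had an unadjusted edgeR p under 0.05. In YAP5SA_MEF2A against YAP5SA all 3 tools called 0, and 3 had an unadjusted edgeR p under 0.05.

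Skeletal muscle isoforms of the same proteins changed in both groups with YAP5SA. Of 12 listed genes 10 had enough reads to be tested. In YAP5SA against Control Myh8 rose and Tnnt1 fell, where 5.69% of all genes rose and 4.17% fell. Myh1 and Myh2 were called higher too, but they had next to no reads outside the groups with YAP5SA and passed the low-count filter only through them, so their calls are a description. Myh8, the perinatal skeletal heavy chain, had 103 and 80.5 CPM in YAP5SA_MEF2A and 26.5, 60.9 and 37.0 CPM in YAP5SA. It had 0.687 to 2.26 CPM in MEF2A and 2.65 to 4.96 CPM in Control, so both groups with YAP5SA stood clear of the others. The log2 fold change against Control was 3.32 ± 0.33 in YAP5SA (adjusted p = 1.1e-05) and 4.44 ± 0.39 in YAP5SA_MEF2A (5.5e-06), and both calls held in every alternative tried (23 and 22). Myh2, a fast skeletal heavy chain, had 90.9 and 120 CPM in YAP5SA_MEF2A and 42.6, 44.9 and 17.5 CPM in YAP5SA, against 0 to 1.02 CPM in Control. Myh1, another fast chain, had 37.2 and 39.0 CPM in YAP5SA_MEF2A and 5.16 to 8.72 CPM in YAP5SA, and 0 counts in all 5 Controls, where 3 counts correspond to 0.101 to 0.391 CPM. Tnnt1, slow skeletal troponin T, had 42.5 and 48.5 CPM in YAP5SA_MEF2A and 27.8, 59.3 and 23.8 CPM in YAP5SA, against 132 to 227 CPM in Control. It fell in YAP5SA (-2.26 ± 0.31, adjusted p = 2.3e-04) and in YAP5SA_MEF2A (-1.96 ± 0.36, adjusted p = 0.00841).

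Myh8 rose and Tnnt1 fell in YAP5SA_MEF2A against Control and in both comparisons with MEF2A as well, while edgeR called 0 listed genes in MEF2A against Control (2 at an unadjusted p under 0.05, 1 by DESeq2, 0 by limma-voom) and 0 in YAP5SA_MEF2A against YAP5SA (4, 0 and 1). Without Controls 1 and 2 and YAP5SA 3, Myh8 was still called in YAP5SA against Control (4.09, adjusted p = 0.0253), and Tnnt1 was at -1.92 (adjusted p = 0.0918). The Tnnt1 call in YAP5SA_MEF2A against Control ended without either YAP5SA_MEF2A library and with library totals only (-1.15). Fast troponins Tnni2 and Tnnt3 were not called, with Tnni2 at 0.649 to 1.20 CPM in YAP5SA_MEF2A, 1.67 to 3.01 CPM in YAP5SA and 0 to 3.47 CPM in Control. Of 5 myogenic regulators of skeletal muscle only Myog had enough reads to be tested, with 1.01 and 1.1 CPM in YAP5SA_MEF2A, 0.484 to 1.49 CPM in YAP5SA and 0 counts in all Controls, so it too passed the filter only through the groups with YAP5SA. Heavy chain genes of skeletal muscle are near copies of each other, so reads may have been split among them.

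**Figure D4:**
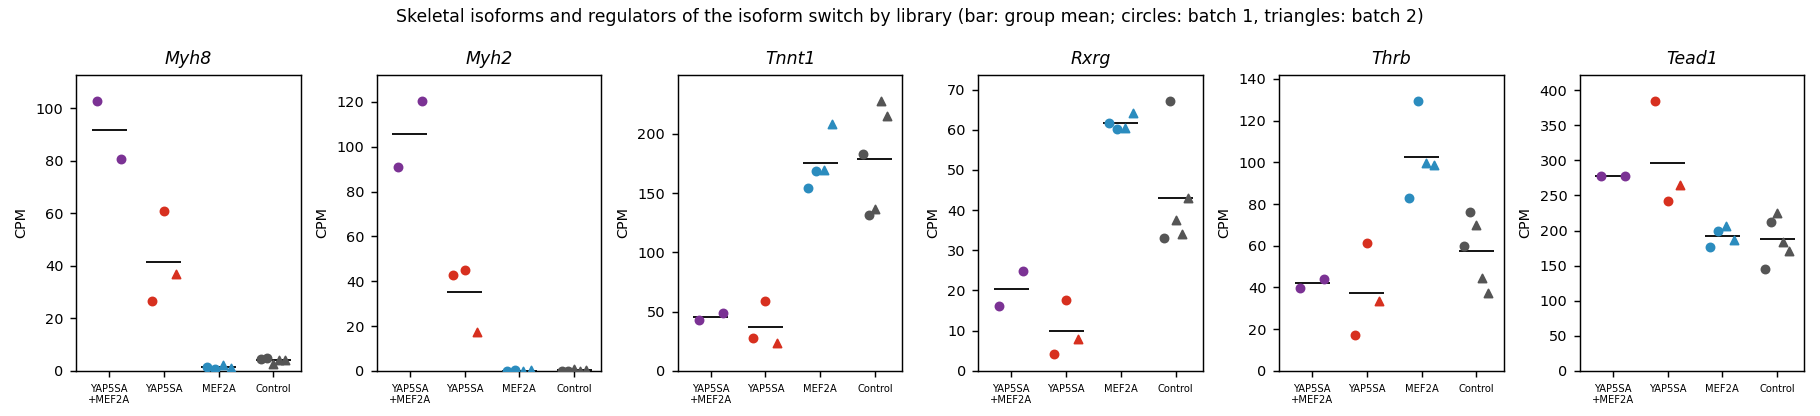
Levels of Myh8, Myh2, Tnnt1, Rxrg, Thrb and Tead1 (vertical axes, CPM after TMM scaling, from 0) in each library, by group; circles are batch 1, triangles batch 2 and bars group means. Myh8 is 26.5 CPM or more in every library with YAP5SA and 4.96 CPM or less in every other library, and Rxrg is 24.7 CPM or less with YAP5SA and 33.1 CPM or more without it.

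Regulators of the isoform change were followed with 20 genes, 19 of them tested, again chosen with earlier results known. Thyroid hormone receptors pair with retinoid X receptors on the Myh6 promoter, and Dio2 makes active thyroid hormone. In YAP5SA against Control 2 fell and 2 rose (1 to 7 called without 1 library), where 4.17% of all genes fell and 5.69% rose. Rxrg, retinoid X receptor gamma, had 4.19, 17.7 and 7.97 CPM in YAP5SA, against 33.1 to 67.0 CPM in Control (-2.18 ± 0.39, edgeR adjusted p = 0.00267), and the groups did not overlap. Smarca4, the chromatin remodelling ATPase BRG1 that represses Myh6 in the fetal mouse heart, fell (-0.67 ± 0.17, adjusted p = 0.0195) with TMM scaling, but with library totals only its value was 0.02. Tead1, the MCAT-binding partner of YAP, had 384, 242 and 264 CPM in YAP5SA, against 145 to 225 CPM in Control, and rose (0.67 ± 0.19, adjusted p = 0.0345), with a value of 1.36 with library totals only. Dio2 had 6.65, 1.37 and 12.6 CPM in YAP5SA, against 0 to 2.82 CPM in Control, and rose (2.46 ± 0.75, adjusted p = 0.0463), with overlapping groups.

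Rxrg kept its call without each library in turn but not within batch 1 or without Controls 1 and 2 and YAP5SA 3 (-1.78, adjusted p = 0.348). Smarca4 failed without YAP5SA 1 or 3, Dio2 without Control 3 or 5 or YAP5SA 1 or 3, and Tead1 without Control 1, 4 or 5 or YAP5SA 1 or 3. In YAP5SA against MEF2A 3 of the 19 fell and 2 rose, where 7.12% of all genes fell and 7.77% rose. The same 4 genes as against Control were called in the same directions. Rxrg was called in 21 of 22 alternatives and Smarca4 in 18 (not without YAP5SA 3). Dio2 was called in 15 (not without MEF2A 3 or 4 or YAP5SA 1 or 3). Tead1 was called in 8 (not without any 1 MEF2A library or YAP5SA 1 or 3). Thrb, thyroid hormone receptor beta, fell as well in that comparison (-1.51 ± 0.35, adjusted p = 0.00942). Its call ended without YAP5SA 3, in batch 1 alone and with library totals only. Thrb had 17.4, 61.3 and 33.6 CPM in YAP5SA, against 82.7 to 129 CPM in MEF2A, and against Control it was not called (-0.68 ± 0.33, adjusted p = 0.206). Thra, the main receptor of the heart, did not pass against Control (-0.58 ± 0.47, adjusted p = 0.493). In YAP5SA_MEF2A edgeR called 0 of the 19 against Control (4 at an unadjusted p under 0.05, 1 by DESeq2, 0 by limma-voom), 0 against MEF2A (5, 3 and 2) and 0 against YAP5SA (3, 0 and 0). In MEF2A against Control it called 0 (1, 0 and 0). Rxrg was at 16 and 24.7 CPM in YAP5SA_MEF2A, below every Control (-1.22 ± 0.45, adjusted p = 0.215).

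Other cell types were read from marker lists, beside 5.69% of all genes higher and 4.17% lower in YAP5SA against Control. Macrophage markers had 1 of 8 genes called in edgeR, Mrc1, which was higher, at a list median of 1.76. DESeq2 and limma-voom each called 5 of them, 6 had an unadjusted edgeR p under 0.05, and edgeR called 0 to 6 without 1 library and 6 with library totals only. The list summed to 78.8 to 812 CPM in YAP5SA, the highest in YAP5SA 3, against 51.9 to 171 CPM in Control. Endothelial markers had 3 of 8 genes lower (0 to 4 called without 1 library, median -0.80), with Tek and Kdr among them, and summed to 157 to 256 CPM in YAP5SA, against 231 to 606 CPM in Control. Mural markers had 1 of 8 higher (0 to 2 called without 1 library), at a list median of 0.12, against 0.06 over all genes. That gene, Acta2 (3.03 ± 0.52, edgeR adjusted p = 0.00511), had 865, 151 and 669 CPM in YAP5SA, against 46.9 to 97.9 CPM in Control. Of the other mural markers, Rgs5, Abcc9 and Myh11 had lower means in YAP5SA than in Control. Cnn1, Pdgfrb, Kcnj8 and Tagln had higher means. Fibroblast markers had 0 of 8 called in edgeR (5 at an unadjusted p under 0.05, 3 by DESeq2, 0 by limma-voom, median 0.41), with a sum of 1733 to 3083 CPM in YAP5SA, against 1264 to 2163 CPM in Control. Cardiomyocyte markers had 1 of 8 lower, Ttn (median -0.45), with 4 at an unadjusted p under 0.05 and 2 called by each of DESeq2 and limma-voom. The part of cell composition in the levels of the members was not tested.

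Atrial muscle could contribute Myl4 and Myl7, so atrial markers were followed too. They summed to 83.3 and 126 CPM in YAP5SA_MEF2A, 88.4 to 143 CPM in YAP5SA, 85.8 to 198 CPM in MEF2A and 174 to 201 CPM in Control, and no library with YAP5SA reached a Control. In YAP5SA against Control 1 of 8 atrial markers was lower in edgeR (4 at an unadjusted p under 0.05, 3 by DESeq2, 3 by limma-voom, and 0 to 4 without 1 library), Mybphl (-1.20 ± 0.35, adjusted p = 0.0379, not without Control 1, 3, 4 or 5 or YAP5SA 1 or 3), and 0 of 3 ventricular markers were called in edgeR (1 at an unadjusted p under 0.05, 1 by DESeq2, 0 by limma-voom, median -0.38). Erythroid markers had 0 of 4 tested genes called (2, 0 and 0). Not every atrial marker was lower in YAP5SA than in Control. Mean Nppa was 26.06 CPM in YAP5SA (5.68 to 41.85) and 11.31 in Control. Mean Bmp10 was 14.55 CPM (2.64 to 28.42) and 11.52, while the other atrial markers had lower means. In YAP5SA against MEF2A edgeR called 1 of 8 atrial markers higher and 0 lower (0 to 4 called without 1 library). The atrial part in Myl4 and Myl7 was not tested.

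The 10 genes did not vary as 1 block across the 14 libraries. As a description over libraries that share batch and depth differences, log2 CPM of Tnni3 and Myl2 correlated with a Pearson r of 0.944, Myh6 and Tnni3 with 0.827, and the atrial light chains Myl4 and Myl7 with 0.716. Tnni1 did not follow Tnni3 (0.031) or Myh6 (-0.003), and Myh7 followed Myh6 with 0.715. Among 8467 genes with a mean log2 CPM of at least 3, the genes most like Tnni3 were Ndufv1 (0.990), Rbck1 (0.983) and Dhrs7 (0.977). Those most like Myh6 were Vipas39 (0.974), Narfl (0.965) and Dhx35 (0.961). Those most like Myh7 were Adcy6 (0.907), Mier3 (0.907) and Rnf40 (0.897), and those most like Tnni1 were Cryzl1 (0.862), Snhg20 (0.859) and Heph (0.826).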

How the data were processed

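Per the labels' protocols, RNA was isolated from PCM1-enriched heart nuclei with a column kit, and polyA-enriched libraries without strand information were sequenced. The authors deposited raw counts of reads, whole numbers for each Ensembl gene ID in 14 libraries. STAR, limma, edgeR and build GRCm38 are named in the submitters' processing notes. Versions, counting program, annotation release and strand setting are not given in the sources used here. The labels gave each library's group, replicate number and batch.

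Symbols and coordinates came from GENCODE vM21, and 54409 of 54446 IDs had a symbol. No library's column repeated another's (0 pairs). A low-count filter, edgeR's filterByExpr with a minimum count of 10 and total of 15, came first. The test was edgeR 4.0.16's quasi-likelihood F-test (R 4.3.3), two-sided, TMM-scaled, over all 14 libraries with group and batch as terms, Benjamini-Hochberg adjusted over all 17987 genes and called under 0.05; it was tested on simulated data. The biological coefficient of variation was 0.503. Log2 CPM used a prior count of 2. Ratios used log2 counts with 0.5 added, and an exact two-sided permutation test. DESeq2 1.42.0 and limma 3.58.1 (voom) were alternatives, with other scalings, filters, terms and library subsets. Levels per kilobase used the length of the principal transcript. Xist and Y-linked transcripts gave the sex of each library.

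The members and the 12 lists (105 genes, 97 tested) were chosen with earlier results of these data known. From each list the text names the 2 called genes with the smallest p in a comparison, or genes that complete a short count, and others (Tpm3, Thrb, Thra, Tnni2, Tnnt3, Myog, Rxrg in YAP5SA_MEF2A) were chosen after their values were seen. List genes were carried through the same alternatives, which was decided after seeing the data. 1 gene of the sarcomere list is counted with it but not reported here by name.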

Additional observations from a re-analysis of the deposited data

Results flagged for a closer look

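In 24 groups of 4 or 5 libraries, 3 had a library that stood apart from its group, where chance gives about 1 in 20 groups. Control 3 had 1536 CPM of Myh7, against 430 to 736 CPM in the other Controls. It also had the most Myh6 of any library, 47220 CPM, so its Myh7 to Myh6 ratio of 3.25 stood closer to the other Controls. MEF2A 4 had 4.61 Myh7 reads per 100 Myh6 reads, against 3.07 to 3.29 in the other MEF2A libraries, and it was the only male MEF2A library. MEF2A 1 had 3.77 Tnni1 reads per 100 Tnni3 reads, against 1.71 to 1.87 in the other MEF2A libraries.

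The Tnni1 to Tnni3 ratio differed in sign between MEF2A against Control and YAP5SA_MEF2A against YAP5SA, a sign that rests on YAP5SA 3. Every MEF2A library lay below the Control mean, by a mean of -3.38 reads per 100, and both YAP5SA_MEF2A libraries lay above the YAP5SA mean, by 1.63 reads per 100. This difference was not tested. YAP5SA 3 was at 3.60, and the other YAP5SA libraries were at 12.6 and 15.1. Without YAP5SA 3 the log2 difference between YAP5SA_MEF2A and YAP5SA was -0.20, and in batch 1 that between MEF2A and Control was -0.10, so both were then below 0.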

How the results depend on the processing

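Members called in YAP5SA against Control (2) became 0 with library totals only, with only the groups compared, in batch 1 alone and without Controls 1 and 2 and YAP5SA 3, and 4 with no filter, DESeq2, limma-voom or no batch term. In YAP5SA against MEF2A the 5 became 0 with library totals, 1 in batch 1 or without Controls 1 and 2 and YAP5SA 3, and 3 with a term for sex. In YAP5SA_MEF2A against MEF2A the 0 became 2 with no batch term, in batch 1 or without Controls 1 and 2, 3 with DESeq2 or limma-voom, 4 with no filter and 5 with only the groups compared. In MEF2A against Control the 0 became 2 with no filter or in batch 1. It became 1 with only the groups compared in YAP5SA_MEF2A against Control, and with no filter in YAP5SA_MEF2A against YAP5SA and the interaction. Leaving out 1 library gave 0 to 4 members in YAP5SA against Control, 2 to 5 in YAP5SA against MEF2A and 0 to 1 in MEF2A against Control. The cause of these changes was not tested.

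The Tnni1 to Tnni3 log2 difference moved in batch 1 to 2.34 (YAP5SA against Control), -0.10 (MEF2A against Control), 2.14 (YAP5SA_MEF2A against Control) and -0.20 (YAP5SA_MEF2A against YAP5SA), the last also without Controls 1 and 2 and YAP5SA 3. In YAP5SA_MEF2A against YAP5SA, leaving out 1 library gave -0.145 to 0.082 for Myh7 to Myh6 and -0.195 to 0.839 for Tnni1 to Tnni3. Smarca4 in YAP5SA against Control was 0.018 with library totals, where it was -0.67 with TMM. The calls of Myh6 and Tnni3 against Control held in 12 and 16 of 23 alternatives.

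No pairing by replicate number was seen: of 16 same-numbered pairs, 0 had deviations correlated over 0.1 (-0.40 to 0.05). With so few libraries a group this cannot exclude pairing. With the replicate block in place of batch, 1 member was called in YAP5SA against Control and 2 in YAP5SA against MEF2A. Pairing same-numbered libraries gave a Myh7 to Myh6 log2 difference of 0.93 for YAP5SA against Control and a Tnni1 to Tnni3 difference of -0.20 for YAP5SA_MEF2A against YAP5SA.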

Other observations

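Genes that overlap the heavy chain pair were read beside it. Gm17428, annotated as a 93-base protein-coding gene on the plus strand inside the body of Myh7 and clear of its exons (chr14:54976933-54977025), was chosen after its values were seen. It had 20.8 and 27.7 CPM in YAP5SA_MEF2A, 9.50, 21.5 and 12.4 CPM in YAP5SA, 125 to 223 CPM in MEF2A and 38.3 to 90.3 CPM in Control. The groups did not overlap in any of these pairs except YAP5SA_MEF2A and YAP5SA, but separation was not counted over all genes. The differences from Control did not pass in YAP5SA_MEF2A (-1.21 ± 0.44, edgeR adjusted p = 0.207) or in MEF2A (1.40 ± 0.31, adjusted p = 0.295). It was lower in YAP5SA than in Control (-1.99 ± 0.37, edgeR adjusted p = 0.00399, not without YAP5SA 3) and than in MEF2A (-3.40 ± 0.39, adjusted p = 1.0e-04, called in all 22 alternatives). Since the libraries carry no strand, reads of the Myh7 intron cannot be told apart from those of Gm17428. Mhrt, the long noncoding RNA antisense to Myh7, was not called in any comparison (0.10 ± 0.28, adjusted p = 0.863 in YAP5SA against Control, and 0.78 ± 0.25, adjusted p = 0.595 in MEF2A against Control).

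Reads counted at Mir208a, the intronic microRNA gene of Myh6, were few and uneven. Per 10000 Myh6 reads there were 1.07 and 1.44 in YAP5SA_MEF2A, 0.363 to 3.21 in YAP5SA, 0.156 to 0.270 in MEF2A and 0 to 0.455 in Control. Mir208a was not called in YAP5SA against Control (2.78 ± 1.03, adjusted p = 0.0953), nor was Mir208b (1.14 ± 0.50, adjusted p = 0.173). These are reads of the primary transcript in polyA RNA and not of the mature microRNAs, and reads of the host intron cannot be told apart from them.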
